A study of Mus musculus with 18 samples.

Results

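The comparison set 4 weeks of hypoxia against 1 week in mouse heart, with constant and intermittent hypoxia as strata. It used 8 of the 18 arrays of the study, chosen by title: 2 arrays each of chronic constant hypoxia (CCH) for 1 and for 4 weeks, and 2 each of chronic intermittent hypoxia (CIH) for 1 and for 4 weeks. The 2 control arrays of 1 week and the 2 of 4 weeks, from mice without hypoxia, are given beside them. Every array was a 2-colour cDNA microarray on which heart cDNA of male mice, labelled with Cy5, was hybridised together with heart cDNA of female mice of the same group, labelled with Cy3. Strain, age and oxygen level are not given in the sources used here. Nothing in the labels ties the arrays to separate animals. The p-values therefore measure only the spread between these arrays, which may be technical.

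Each value is a log2 ratio between the sexes, so a difference between 4 weeks and 1 week is a change of the male-to-female ratio. It does not show in which sex the RNA changed, and a change of the same size in both sexes leaves the ratio as it was. The direction of the ratio is not stated and was inferred from Eif2s3y, a Y-linked translation factor gene. Its ratio was 1.13 and 1.75 on the arrays of CCH 1 week, 1.16 and 1.61 on those of CCH 4 weeks, 1.43 and 1.95 on those of CIH 1 week, and -0.03 and 1.49 on those labelled CIH 4 weeks. The control arrays gave 2.00 and 1.94 at 1 week and 1.24 and 1.00 at 4 weeks. The array labelled CIH 4 weeks replicate 1 thus went against its labels, with no excess of a Y-linked transcript in the male channel. A second array, labelled CIH 1 week replicate 1, is titled 1 week of CIH while its sources name 2 weeks of CCH. It was kept by its title, and counts without both arrays are given below. Ratios hold no expression level, so the label of heart tissue could not be checked against cardiac markers.

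When oxygen falls, the hypoxia-inducible factors escape degradation by the von Hippel-Lindau protein and switch on genes of glycolysis, vessel growth and iron handling. In the heart, long exposure is known for a shift in fuel use between fatty acids and glucose, for right ventricular growth against raised lung pressure, and for remodelling of the extracellular matrix. Intermittent exposure alternates low and normal oxygen and is a model of sleep apnoea.

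The arrays of the longer exposure held fewer measured spots. Spots with a value numbered 23309 and 24512 at CCH 1 week, 15880 and 14684 at CCH 4 weeks, 21846 and 20489 at CIH 1 week, and 15338 and 16082 at CIH 4 weeks. The 1-week and 4-week arrays did not overlap, and the stratified difference of -7043 spots reached the smallest p that the 36 relabellings of duration within kind allow (exact permutation test, two-sided, p = 0.0556), so 0.05 could not be reached. The controls split the same way, with 24233 and 23300 spots at 1 week and 12650 and 17904 at 4 weeks. The SD of the log2 ratios per array, over the 5610 tested genes with a value on all 12 arrays, was 0.285 to 0.440 at 1 week and 0.299 to 0.618 at 4 weeks of hypoxia, a difference of 0.122 (exact permutation test, two-sided, p = 0.111). The highest SD was that of CCH 4 weeks replicate 1. The part of these array properties in the gene differences was not tested as such. The fit was repeated with the arrays scaled to a common spread, and its CCH count is given below.

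**Figure D1:**
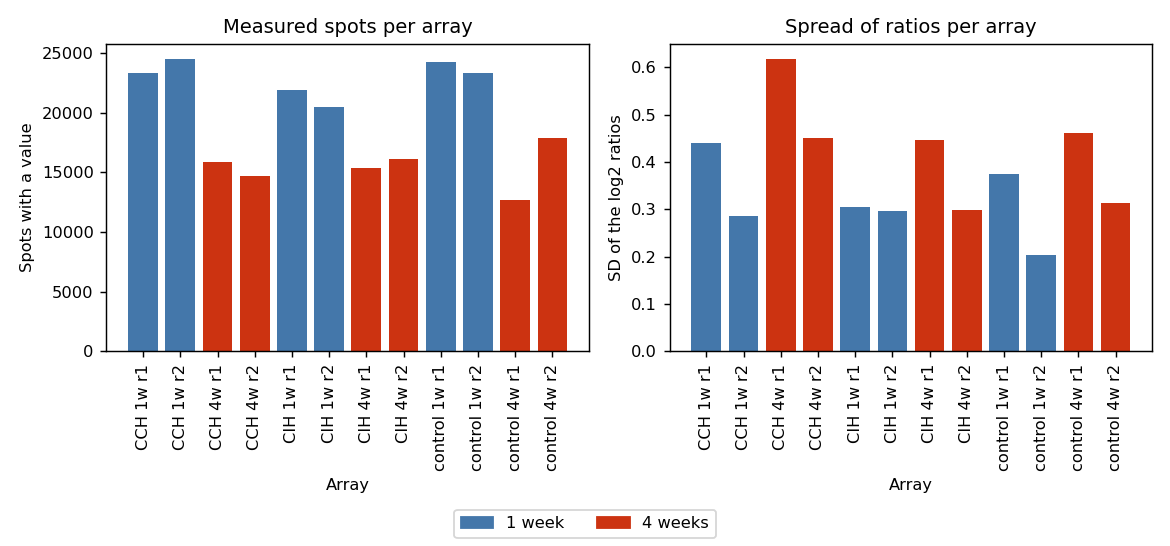
Number of spots with a value (left) and SD of the log2 male-to-female ratios over the 5610 genes with a value on all 12 arrays (right), one bar per array, coloured by duration. The 4-week arrays of both hypoxia groups, at 14684 to 16082 spots, lie below all 1-week arrays, at 20489 to 24512, and the controls split in the same way.

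Over the 6201 genes with a value on all 8 arrays, Pearson's r across genes between the arrays of a group was 0.649 at CCH 4 weeks, 0.350 at CCH 1 week, 0.287 at CIH 1 week and 0.057 at CIH 4 weeks (median 0.319). The pair at CIH 4 weeks, which includes the array with the low Eif2s3y ratio, was the least alike of the 4. It was -0.144 to 0.444 for pairs of the same duration and other kind (median 0.263), and -0.035 to 0.574 for pairs of the same kind and other duration (median 0.280). Pairs that differed in both spanned -0.257 to 0.434 (median 0.338). These are descriptions across genes of one platform, and genes are not independent replicates.

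No gene passed the threshold between 1 and 4 weeks when the CCH and CIH differences were averaged. Of 7237 genes tested, 0 (0%) passed an adjusted p of 0.05 in limma with Benjamini-Hochberg adjustment, and the smallest adjusted p was 0.0968. At an unadjusted p under 0.05 there were 951 genes (13.1%), of which 586 (8.1%) had a higher ratio at 4 weeks and 365 (5.04%) a lower one. On the 8 arrays, 139 of 6201 genes (2.24%) had all 4-week values above all 1-week values and 44 (0.71%) had all below, 183 (2.95%) in all. With both doubted CIH arrays left out the count stayed 0, with a smallest adjusted p of 0.574. Some genes passed without CIH 4 weeks replicate 2, and Alb did without CCH 1 week replicate 2, but each of these fits left 1 array in that group. At CIH 4 weeks the array left was replicate 1, which went against its labels.

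The gene with the smallest p among those measured on all 8 arrays was Car4, a membrane-bound carbonic anhydrase that interconverts carbon dioxide and bicarbonate at the cell surface. Its log2 ratio was -1.36 and -0.83 at CCH 1 week, 0.23 and 0.66 at CCH 4 weeks, -0.45 and -0.33 at CIH 1 week, and 0.038 and -0.023 at CIH 4 weeks. All 4-week values lay above all 1-week values, and the lowest ratios were those of CCH at 1 week. The averaged difference was 0.97 ± 0.16 (SE, 2 arrays per group; limma adjusted p = 0.0968). The controls gave -0.07 and 0.021 at 1 week and -0.10 and -0.092 at 4 weeks, and the excess of the hypoxia difference over the control difference was 1.04 ± 0.28 (adjusted p = 0.694).

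Igf1, the growth factor that promotes muscle growth and survival, gave a similar picture. Its ratio was -0.58 and -0.49 at CCH 1 week, 0.95 and 0.90 at CCH 4 weeks, -0.30 and -0.48 at CIH 1 week, and -0.071 and 0.18 at CIH 4 weeks. The durations did not overlap, and the averaged difference was 0.95 ± 0.16 (SE; limma adjusted p = 0.107). The control arrays with a value gave 0.23 and -0.079 at 1 week and -0.038 at 4 weeks.

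Promoters of these genes are shown because Car4 and Igf1 had the smallest p-values of the averaged difference among genes on all 8 arrays and passed the threshold in CCH. The sequences are those of RefSeq (GRCm38.p6), 250 bases before to 50 bases after the gene's start, 5′ to 3′ on the plus strand, for Car4 at chr11:84957504-84957803 and for Igf1 at chr10:87860861-87861160. Capitals mark the only match in each to the core of the hypoxia response element, searched as ACGTG or GCGTG on both strands.
Car4: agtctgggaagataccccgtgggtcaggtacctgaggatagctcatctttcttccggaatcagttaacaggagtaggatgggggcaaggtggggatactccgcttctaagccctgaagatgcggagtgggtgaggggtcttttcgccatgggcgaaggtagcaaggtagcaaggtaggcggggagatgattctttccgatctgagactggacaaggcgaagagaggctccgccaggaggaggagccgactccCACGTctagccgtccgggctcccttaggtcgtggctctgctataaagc
Igf1: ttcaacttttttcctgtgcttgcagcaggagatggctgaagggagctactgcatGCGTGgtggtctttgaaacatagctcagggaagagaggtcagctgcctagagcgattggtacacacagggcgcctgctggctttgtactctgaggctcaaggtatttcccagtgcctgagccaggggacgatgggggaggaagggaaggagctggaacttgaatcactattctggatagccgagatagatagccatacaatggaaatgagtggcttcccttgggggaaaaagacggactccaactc
The match began at base 253 in Car4, where CACGT is the core read on the other strand, and at base 55 in Igf1, as GCGTG. Such a short motif is common: of the 5810 tested genes with a promoter in the table, 64.5% held it, against 43.8% of all 27025 genes listed there. Of the genes called higher at 4 weeks of CCH (below), 57 of 65 had a promoter in the table and 70.2% of these held it, and of those called lower, 30 of 42 had one and 63.3% held it. A match is a description of letters, not a site of binding.

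The next genes with a positive averaged difference had adjusted p-values of 0.107 to 0.116 in limma. Colgalt1, which adds galactose to collagen, had ratios of -0.49 and -0.053 at CCH 1 week, 1.54 and 0.72 at CCH 4 weeks, -0.16 and -0.53 at CIH 1 week, and 0.81 and 0.27 at CIH 4 weeks. Its averaged difference was 1.15 ± 0.22 (SE) and its control difference 0.0045. Here the CIH difference, at 0.89 ± 0.31, came closer to the CCH difference, at 1.40 ± 0.31, than for Car4 and Igf1. Dpep1, a membrane dipeptidase, was also close in both kinds, with differences of 1.29 ± 0.36 in CCH and 1.08 ± 0.36 in CIH. Its ratios were -0.52 and -0.49 against 0.19 and 1.37 in CCH, and -0.61 and -0.14 against 1.08 and 0.33 in CIH. Its controls, with 0.73 and 0.10 against 1.16 and 0.70, differed by 0.51 in the same direction.

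Of the other genes among these 12, Ccm2, a scaffold of the endothelial junction complex that is lost in cerebral cavernous malformation, and the signalling scaffolds Card10 and Sh2d3c had averaged differences of 0.76 ± 0.16, 0.77 ± 0.16 and 0.67 ± 0.14. The control difference was 0.57 for Ccm2, -0.19 for Card10 and 0.12 for Sh2d3c, so the Ccm2 controls moved in the same direction as hypoxia. Rgs12, which speeds the shut-off of G protein signals, differed by 0.64 ± 0.14, nearly all of it from CCH (1.22 ± 0.20, against 0.062 ± 0.20 in CIH). The nuclear and enzyme genes Smarcad1 (a chromatin remodeller), Zfp820 (a zinc finger protein), Tceanc2 and Galnt11 (which starts O-linked sugar chains) differed by 0.72 ± 0.14, 1.13 ± 0.22, 0.91 ± 0.17 and 0.69 ± 0.14. For all 12 genes the 4-week values lay above all 1-week values, which was so for 2.24% of genes in general, but the genes were picked by small p-values and this is no separate result.

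Among the 12 genes with the smallest p and a negative averaged difference, Ntm, Smoc2, Mapt and Dysf had all 4-week values below all 1-week values. That was so for 0.71% of genes in general, but these genes too were picked by small p-values, so it is no separate result. Ntm encodes a neural cell adhesion protein. Its ratio was 0.50 and 0.29 at CCH 1 week, -0.72 and -0.30 at CCH 4 weeks, 0.52 and 0.53 at CIH 1 week, and -0.064 and 0.04 at CIH 4 weeks, with an averaged difference of -0.72 ± 0.15 (limma adjusted p = 0.116). Dysf, the dysferlin gene of muscle membrane repair, had 0.22 and 0.047 against -0.69 and -0.50 in CCH and 0.30 and 0.10 against -0.52 and -0.30 in CIH. The averaged difference of Dysf was -0.67 ± 0.16 (limma adjusted p = 0.137), and the CCH and CIH differences were -0.73 ± 0.23 and -0.61 ± 0.23.

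Mapt, which encodes the microtubule-binding protein tau, had ratios of 0.37 and 0.051 against -0.50 and -0.58 in CCH and of 0.51 and -0.36 against -0.70 and -0.65 in CIH. Its averaged difference was -0.75 ± 0.18 (limma adjusted p = 0.137). The Mapt controls had the same direction, with 0.18 and 0.35 at 1 week and -0.25 and -0.013 at 4 weeks, and the excess of the hypoxia difference over theirs was -0.35 ± 0.31. Smoc2, a secreted calcium-binding matrix protein, differed by -0.74 ± 0.16, and its control ratios also had that direction, with 0.25 and 0.079 at 1 week and -0.58 and -0.27 at 4 weeks. The excess of the Smoc2 hypoxia difference over the control difference was -0.15 ± 0.28.

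In Dmkn, Sulf2 and Rpl29 nearly all of the negative averaged difference came from CCH. Dmkn, the dermokine gene, had 0.51 and 0.27 at CCH 1 week against -2.38 and -1.14 at CCH 4 weeks, and -0.07 and -0.40 against -0.57 and 0.072 in CIH. Sulf2, an extracellular enzyme that trims heparan sulfate, had 0.20 and -0.018 against -1.23 and -1.04 in CCH, and -0.071 and 0.073 against -0.23 and 0.14 in CIH. Rpl29, a protein of the large ribosomal subunit, had -0.27 and 0.29 against -1.41 and -1.57 in CCH, and -0.37 and -0.72 against -0.62 and -0.59 in CIH. In each of the 3 genes the CIH arrays of both durations overlapped. AU040972, Gatb (a subunit of the mitochondrial enzyme that completes glutamine transfer RNA), Cbr1 (a carbonyl reductase), Malat1 (a long nuclear RNA) and Pex6 (a peroxisome assembly ATPase) had averaged differences of -1.05, -0.98, -0.65, -0.72 and -0.68, with adjusted p-values of 0.116 to 0.146.

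**Figure D2:**
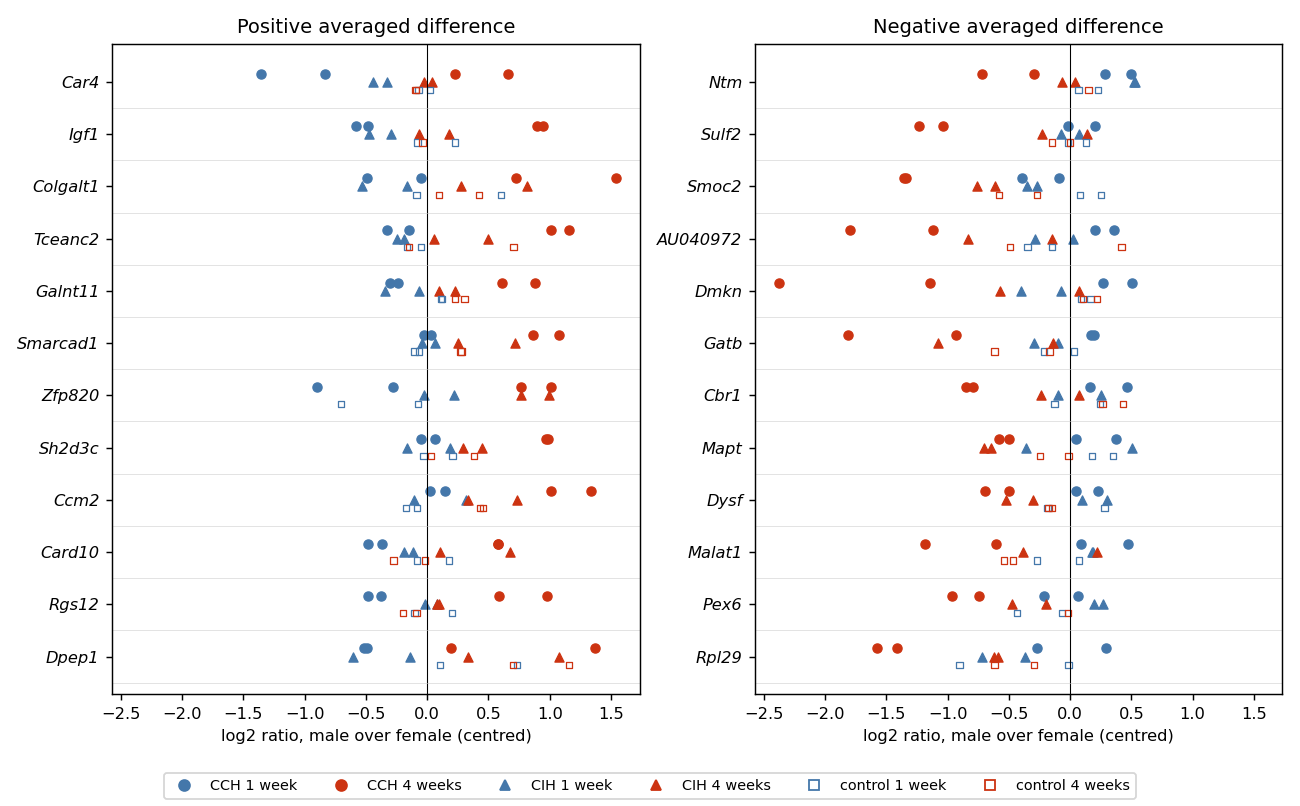
Log2 male-to-female ratios on the 12 arrays of 1 and 4 weeks, one point per array, for the 12 genes per direction with the smallest p in the averaged difference. Colour gives the duration and marker shape the kind of hypoxia or the control. Car4 and Igf1 at 4 weeks of hypoxia lie above all their values at 1 week of hypoxia, with the widest gap in CCH, while the controls fall between or among them, and Dmkn and Sulf2 do not overlap between durations in CCH but do in CIH.

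Constant hypoxia alone gave calls. Of 7237 genes, 107 (1.48%) passed an adjusted p of 0.05 between CCH 4 weeks and CCH 1 week, 65 (0.898%) with a higher ratio at 4 weeks and 42 (0.58%) with a lower one (limma; smallest adjusted p = 0.0292), and 1738 (24%) had an unadjusted p under 0.05. The called differences ran from 0.776 in size to 1.95 upward and -2.15 downward, with a median size of 1.25. Car4 rose by 1.54 ± 0.23 (SE), Rgs12 by 1.22 ± 0.20, Igf1 by 1.46 ± 0.23, Ntan1, which removes amide groups from protein N-termini, by 1.44 ± 0.21, and Pogz, a chromatin-bound zinc finger protein, by 1.19 ± 0.21 (limma adjusted p of 0.0292 to 0.032). Dmkn fell by 2.15 on the log2 scale, Sulf2 by 1.22, Sh3bgr, a muscle-expressed protein, by 1.31 and Trim32, a ubiquitin ligase of striated muscle, by 1.15 (limma adjusted p of 0.0292 to 0.032), and Rpl29 was called too (0.032). Of the 12 genes with the smallest p on the positive side of the averaged difference, all but Dpep1 (adjusted p = 0.0716) were among the calls. The number of calls depended on single arrays. Without CCH 1 week replicate 1 or without CCH 4 weeks replicate 1 no gene was called, without CCH 1 week replicate 2 there were 6 calls, 2 of them among the 107, and without CCH 4 weeks replicate 2 there were 310, 80 of them among the 107. Quantile normalization left 1 call (Car4), and scaling the arrays to a common spread or taking the spread from the 1-week and 4-week arrays alone left none. Without centring the split was 31 higher and 48 lower.

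Members of the pathway lists were among the calls, which made up 107 of 7237 genes (1.48%) in general. Those named here were 1 of 37 extracellular matrix genes, 1 of 30 antioxidant genes and 1 of 26 mitophagy, autophagy and apoptosis genes. Of 79 splicing and nuclear RNA-binding genes 1 was called. Of 70 heat shock proteins and chaperones 1 was called higher and 1 lower. Such small numbers are no result about a list. Eln, which encodes elastin, had ratios of 0.29 and -0.69 at CCH 1 week and 1.17 and 1.89 at CCH 4 weeks, and rose by 1.73 ± 0.35 (limma adjusted p = 0.0368). In CIH Eln had -0.22 and 0.50 against -0.014 and -0.11, and in the controls 0.14 and 0.20 against 0.56 and 0.89. Nqo1, the quinone reductase induced by oxidative stress, had 0.12 and 0.068 at CCH 1 week and -1.33 and -1.04 at CCH 4 weeks, and fell by 1.28 (limma adjusted p = 0.0368). Hspb2, a small heat shock protein of muscle, had -0.29 and -0.29 against -1.85 and -1.47, and fell by 1.37 (limma adjusted p = 0.0444). Both genes had positive differences in CIH. Dnajb1, a partner of heat shock protein 70, rose by 0.78 (limma adjusted p = 0.0444). Bcl2l1, which restrains apoptosis, fell by 1.10 (limma adjusted p = 0.0368), and Celf3, a splicing regulator, fell by 1.36 (limma adjusted p = 0.0493).

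Intermittent hypoxia gave no call. Of 7237 genes, 0 (0%) passed the threshold in CIH, with a smallest adjusted p of 0.758, and 211 (2.92%) had an unadjusted p under 0.05 in limma, 124 (1.71%) positive and 87 (1.2%) negative. Without both doubted arrays the count was again 0 (smallest adjusted p = 0.342). The median size of the difference was 0.154 in CIH, 0.335 in CCH and 0.200 in the controls. Hsph1, a heat shock protein that assists protein refolding, had the smallest p: its ratio was 0.84 and 0.66 at CIH 1 week and -0.46 and -0.73 at CIH 4 weeks, a difference of -1.35 ± 0.26 (limma adjusted p = 0.758). Its control ratios were -0.089 and 0.13 at 1 week and -1.09 and -0.34 at 4 weeks, so the controls differed by -0.74 in the same direction. In CCH the Hsph1 ratios overlapped, at -0.18 and 0.15 against 0.15 and -0.38.

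The other genes named for CIH did not pass the threshold either. Phtf1 had -0.44 and 0.11 at CIH 1 week and -1.91 and -1.44 at CIH 4 weeks, a difference of -1.51 ± 0.34 in CIH, against 0.10 ± 0.34 in CCH. Pabpc1, the poly(A)-binding protein of messenger RNA, had -0.074 and 0.15 against -1.22 and -1.26, and it differed by -1.27 in CIH, by 0.55 in CCH and by 0.97 in the controls. Zfp318 (-1.34) and Abca3, a lipid transporter (-0.89), completed the negative side. On the positive side Jpt2 differed by 1.04 ± 0.24, and Fmod, the collagen-binding proteoglycan fibromodulin, had -0.74 and -0.94 against -0.0071 and 0.017, a difference of 0.85 ± 0.22. AI413582, Tspan2 and Ergic1 differed by 0.66, 0.76 and 0.84 in CIH, and Tspan2, a tetraspanin, by 0.76 in CCH as well.

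The CCH and CIH differences had little in common across genes. Pearson's r between them was 0.028 over 7237 genes (Spearman's rho 0.041), and 3746 genes (51.8%) had the same sign, with no array shared between the kinds. This is a description across genes of one platform. Of the 107 genes called in CCH, 59 had the same sign in CIH and 8 of these an unadjusted p under 0.05. The median CIH difference was 0.095 for the 65 higher genes and 0.0096 for the 42 lower genes, and the median control difference was 0.126 and 0.019. The test of the difference itself called 0 of 7237 genes (0%; smallest adjusted p = 0.236 in limma), with 920 (12.7%) at an unadjusted p under 0.05, 457 (6.31%) positive and 463 (6.4%) negative, so no gene was shown to differ between the kinds in its change with duration.

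**Figure D3:**
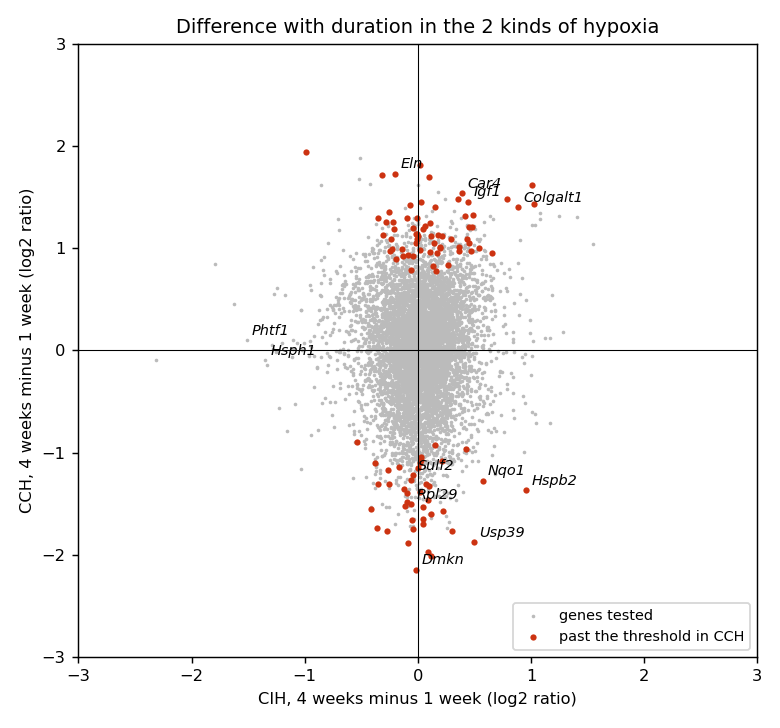
Difference in log2 male-to-female ratio between 4 weeks and 1 week in CCH (vertical axis) against that in CIH (horizontal axis), one point per gene (7237 genes), with the 107 genes called in CCH marked. The cloud is wide along the CCH axis and narrow along the CIH axis, and the marked genes scatter around zero on the CIH axis.

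Hspb2, Nqo1, Gsn, Usp39 and Jpt2, the genes with the smallest p on the negative side of that test among those measured on all 8 arrays, had differences of opposite sign in CCH and CIH. Hspb2 differed by -2.32 ± 0.44 between the kinds (limma adjusted p = 0.236), with CIH ratios of -0.31 and -1.20 at 1 week and 0.35 and 0.038 at 4 weeks. Nqo1 differed by -1.85 ± 0.36, with CIH ratios of -0.75 and -0.64 against -0.50 and 0.25, so its CIH difference was 0.57. Gsn, the actin-severing protein gelsolin, had -0.70 and -0.64 against -1.58 and -1.28 in CCH and -1.42 and -1.16 against -0.36 and -0.87 in CIH, a difference of -1.44 ± 0.30 between the kinds. Usp39, a splicing factor, had -2.38 ± 0.50 and Jpt2 -1.66 ± 0.33. On the positive side stood Pogz (1.39 ± 0.29), Pabpc1 (1.82 ± 0.43) and Rgs12 (1.15 ± 0.28).

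The controls of 4 weeks and 1 week show how the ratio differed without hypoxia. Of 7136 genes with values in both control groups, 0 (0%) passed the threshold (limma; smallest adjusted p = 0.879) and 333 (4.67%) had an unadjusted p under 0.05, 220 (3.08%) positive and 113 (1.58%) negative. Tesc, a calcium-binding regulator of sodium-proton exchange, had 0.24 and 0.0006 at 1 week and -1.72 and -0.85 at 4 weeks in the controls, and it also had all 4-week hypoxia values below all 1-week values, with an averaged difference of -0.89 ± 0.24. Ncapd3, a condensin subunit, had -0.49 and -0.45 against 0.88 and 0.19 in the controls and overlapped between durations in hypoxia. Arrays were also left out one at a time, but without control 1 week replicate 2 only replicate 1 was left in its group. That array stood apart in the cell cycle genes (below).

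The hypoxia difference exceeded or fell short of the control difference in 0 of 7136 genes (0%; limma, smallest adjusted p = 0.694), with 429 (6.01%) at an unadjusted p under 0.05, 178 (2.49%) positive and 251 (3.52%) negative. Car4 (1.04 ± 0.28), Rgs12 (0.83 ± 0.24), Card10 (0.97 ± 0.28) and Stx17, a SNARE protein of autophagosome fusion (0.94 ± 0.26), were among the genes with the smallest p on the positive side. Cbr1 (-0.94 ± 0.26), Pabpc1 (-1.33 ± 0.37) and Ncapd3 (-1.09 ± 0.27) stood on the negative side. Here too, leaving out control 1 week replicate 2 left only replicate 1 in its group.

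The pathway lists are described by counts and medians, beside 3917 of 7237 genes (54.1%) with a positive averaged difference and a median of 0.029 over all genes. No list member passed the threshold in the averaged difference. In the hypoxia-inducible factor pathway, 28 genes were tested, 18 had a positive difference, and the median was 0.13 (0.16 in CCH, 0.14 in CIH and -0.086 in the controls). At an unadjusted p under 0.05 there were 2 positive and 2 negative members, against 8.1% and 5.04% of all genes. Ndrg1, a stress-induced gene, had -0.18 and 0.082 against 0.63 and 0.55 in CCH and 0.086 and 0.08 against 0.39 and 0.26 in CIH, a difference of 0.44 ± 0.15 with no overlap (limma adjusted p = 0.260). Vhl, the factor that marks hypoxia-inducible factors for degradation, differed by -0.49 ± 0.19, and Flt1, a receptor of vascular endothelial growth factor, by -0.35 ± 0.15, with control differences of -0.36 and -0.45.

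Genes of energy supply had positive medians in the averaged difference, but not in each kind of hypoxia. The median was -0.036 for complex I in CCH, and -0.026 for fatty acid oxidation and -0.029 for glycolysis and glycogen in CIH. The averaged median was 0.15 for 38 genes of respiratory complexes II to V (26 positive). Of these 38, 4 were positive and 1 negative at an unadjusted p under 0.05, against 8.1% and 5.04% of all genes. The averaged median was 0.088 for 36 genes of complex I (21 positive) and 0.16 for 17 genes of the citric acid cycle (14 positive). Fatty acid oxidation had 0.077 over 23 genes, and the control medians for it and for the citric acid cycle were -0.36 and -0.31. The control 1 week arrays differed, over the members on all 12 arrays. Replicate 1 had a median ratio of 0.28 for fatty acid oxidation and 0.27 for the citric acid cycle, and replicate 2 -0.064 and 0.048. Glycolysis and glycogen had an averaged median of 0.021 over 25 genes, and under the alternatives its median ran from -0.13 to 0.17. Medians of fatty acid oxidation and the citric acid cycle each turned negative under 1 alternative. The 2 arrays of CIH 4 weeks disagreed in these lists, over the members on all 12 arrays. On replicate 1, the array with the low Eif2s3y ratio, the median ratio was 0.45 for the citric acid cycle, 0.32 for fatty acid oxidation and 0.12 for complex I. On replicate 2 it was -0.33, -0.25 and -0.12. Cox6a1, a subunit of cytochrome c oxidase, had 0.34 and 0.36 against 1.59 and 0.81 in CCH and 0.13 and 0.21 against 0.90 and 0.77 in CIH, a difference of 0.76 ± 0.18 with no overlap (limma adjusted p = 0.143). Decr1, which reduces unsaturated fatty acyl chains for oxidation, differed by 0.65 ± 0.23 with no overlap, and Pfkm, the muscle phosphofructokinase of glycolysis, by -0.62 ± 0.19 with overlap.

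The ribosomal protein genes differed between the kinds of hypoxia in their medians. Over 60 cytosolic ribosomal protein genes the median was -0.23 in CCH and 0.17 in CIH, and -0.072 in the average, which turned positive under 4 alternatives. In CCH 10 members were negative and 1 positive at an unadjusted p under 0.05, against 11.3% and 12.7% of all genes, and Rpl29 alone was called. Rps29, of the small subunit, had all 4-week values below the 1-week values and an averaged difference of -0.59 ± 0.21. The 61 mitochondrial ribosomal protein genes had a median of 0.052, the 49 translation factors 0.039, the 43 proteasome subunits 0.015 and the 79 splicing factors and nuclear RNA-binding proteins -0.0026, and each of these medians changed sign under at least 1 alternative. The 70 heat shock proteins and chaperones had a median of -0.059, which turned positive under 3 alternatives. Of these 70, 6 were positive and 6 negative at an unadjusted p under 0.05, against 8.1% and 5.04% of all genes in the average.

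In the heart's structural and signalling lists, the 20 sarcomere genes had a median of 0.11, the 23 calcium cycling and channel genes 0.081 and the 24 natriuretic peptide and hypertrophy genes 0.015. Of the last list Igf1 was called in CCH. The 37 extracellular matrix genes had a median of 0.038 in the average, which turned negative under 3 alternatives, and of -0.12 in CCH. In the average 5 members were positive and 1 negative at an unadjusted p under 0.05, against 8.1% and 5.04% of all genes. Col1a2, a chain of type I collagen, had 0.065 and -0.14 against 0.44 and 0.66 in CCH and -0.26 and -0.23 against 0.085 and 0.086 in CIH, a difference of 0.46 ± 0.13 with no overlap (limma adjusted p = 0.194). Its control ratios, 0.29 and 0.052 against 0.56 and 0.46, differed by 0.34 in the same direction. Timp4, a cardiac inhibitor of matrix metalloproteinases, differed by 0.82 ± 0.24 in hypoxia and by -0.61 ± 0.34 in the controls. The immediate early and stress response genes had a median of -0.18 (8 of 23 positive), with Ddit3, a mediator of endoplasmic reticulum stress, at -0.60 and Myc at 0.63.

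Over 50 cell cycle and replication genes the median was 0.49 in the controls and 0.061 in hypoxia. The hypoxia median turned negative under 2 alternatives. At an unadjusted p under 0.05 there were 4 positive and 2 negative members, against 8.1% and 5.04% of all genes. The control difference came with 1 array standing apart: over the members on all 12 arrays, control 1 week replicate 1 had a list median of -0.68, and the other control arrays had 0.035, 0.29 and 0.053. Orc2, of the origin recognition complex, differed by 0.73 ± 0.18 in hypoxia and 0.51 in the controls. Of 26 mitophagy, autophagy and apoptosis genes, 3 were positive and 2 negative at that p, and Map1lc3b, which coats autophagosomes, differed by 0.60 ± 0.18 (limma adjusted p = 0.200). Of 31 MHC and interferon genes, 3 were positive and none negative, against the same 8.1% and 5.04% of all genes, with Gbp3, an interferon-induced GTPase, at 0.65 ± 0.17 and no overlap.

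**Figure D4:**
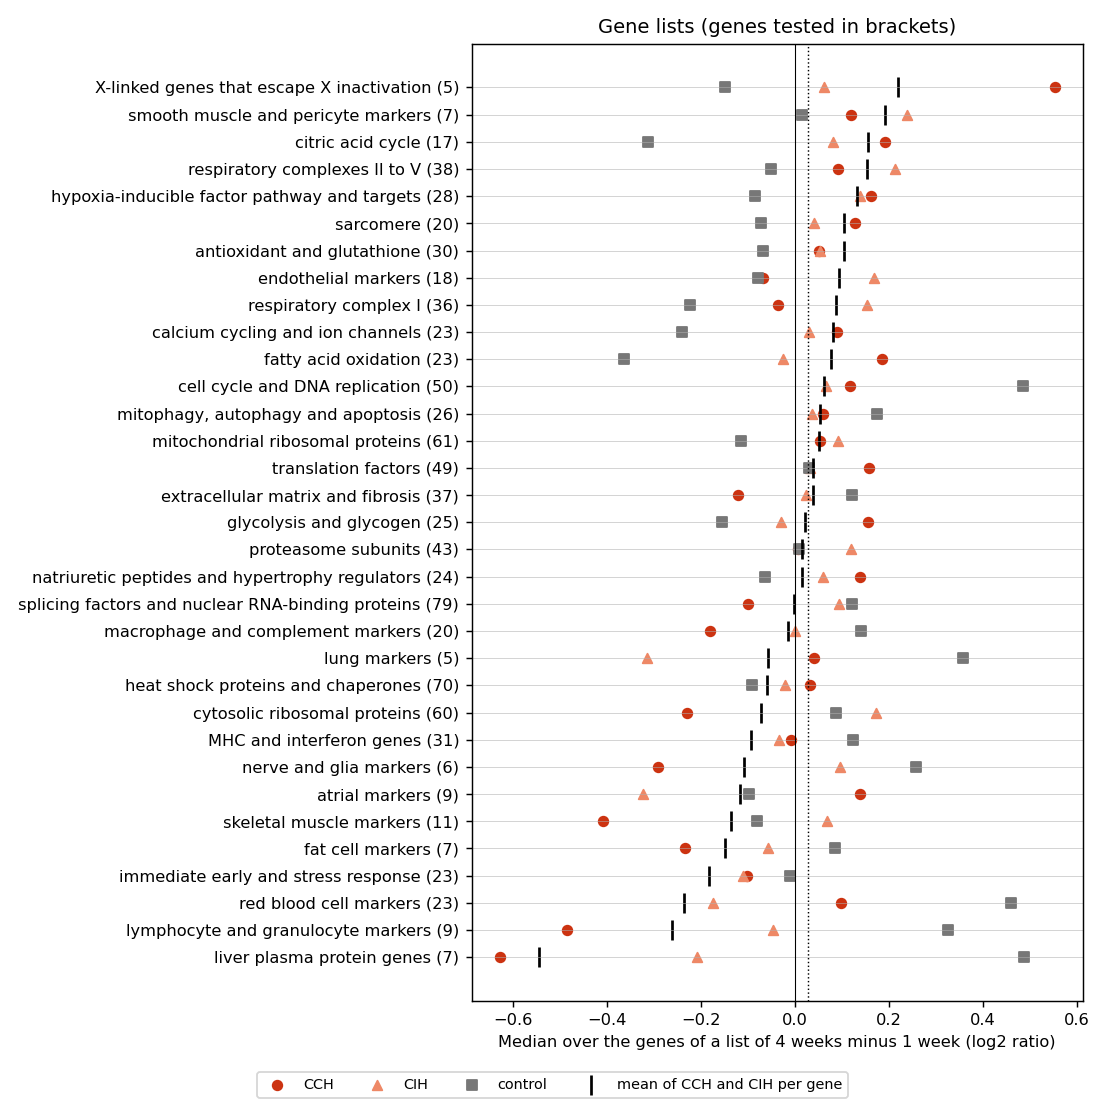
Median over each gene list of the 4-week minus 1-week difference in log2 ratio for CCH, CIH, the controls and the average of CCH and CIH, with the number of genes tested in brackets. The dotted line marks the median of all genes in the average, 0.029, and in the average the liver plasma protein genes lie lowest of the lists drawn, at -0.54.

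Among the lists of markers of other tissues and cell types, the liver plasma protein genes were much higher on 1 array than on the others. The 7 liver plasma protein genes had a median difference of -0.54, with 0 of 7 positive. Over the 5 members with a value on all 12 arrays, the median ratio was 2.31 on CCH 1 week replicate 1, against -0.68 on replicate 2. On those arrays Alb, the serum albumin gene, had 5.67 and -2.65 and Trf, the transferrin gene, 4.33 and -1.01. On the other 6 hypoxia arrays Alb lay between -0.54 and 0.51 and Trf between -0.042 and 1.20. In Alb and Trf, replicate 2 thus stood apart as well, in the direction opposite to replicate 1. In the other members of the list replicate 2 lay within the range of those 6 arrays. The array with the high liver genes is one of those without which no CCH call was left, and the part of this RNA in the CCH calls was not tested. Red blood cell markers had a median averaged difference of -0.24 over 23 genes (7 positive) and of 0.46 in the controls. The kinds differed in sign, with a median of 0.098 in CCH (13 positive) and -0.17 in CIH (7 positive). Lymphocyte and granulocyte markers had -0.26 over 9 genes and -0.49 in CCH, with Il7r, an interleukin receptor, at -0.78 ± 0.26. The X-linked genes that escape X inactivation, which are usually lower in males, had a median difference of 0.55 in CCH and 0.061 in CIH over 5 genes. Kdm6a, one of them, had -0.41 and -0.64 at CCH 1 week and 0.28 and -0.23 at CCH 4 weeks, so it was positive on CCH 4 weeks replicate 1.

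Endothelial markers had a median difference of 0.094 over 18 genes, smooth muscle and pericyte markers 0.19 over 7, and macrophage and complement markers -0.014 over 20. Over the 17 endothelial members on all 12 arrays, CCH 4 weeks replicate 1 had a median ratio of -0.42. The other 4-week hypoxia arrays had 0.057 to 0.13. Atrial markers had a median difference of -0.12 over 9, but the 1-week arrays of a group differed widely. Over the 8 atrial members on all 12 arrays, the median ratio was 0.85 and -0.16 at CCH 1 week and -0.86 and 0.40 at CIH 1 week. Skeletal muscle markers had -0.14 over 11 genes, with -0.41 in CCH (0 of 11 positive) and 0.068 in CIH (7 positive). Over the 9 members on all 12 arrays, the median ratio was 0.50 and 0.056 at CCH 1 week and -0.44 and -0.14 at CCH 4 weeks. The 0.50 was that of CCH 1 week replicate 1, the array with the high liver genes. Lung markers had a median difference of -0.057 over 5 genes, fat cell markers -0.15 over 7, nerve and glia markers -0.11 over 6. Antioxidant and glutathione genes had 0.10 over 30, and mitophagy, autophagy and apoptosis genes 0.054 over 26. Both of these medians turned negative under 1 alternative. The macrophage, atrial, lung, fat cell and nerve medians also changed sign under at least 1 alternative. No gene of the marker lists was called in CCH. In whole heart RNA, fewer cells of a type and less RNA per cell cannot be told apart.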

How the data were processed

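Hearts of male and female mice were compared on 18 two-colour arrays (9 groups of 2), of which 8 enter the comparison and 4 controls stand beside it. The authors deposited log2 ratios of the channels, scaled so that the linear ratio averages 1 per array. Base 2 was settled from this. Background correction, spot filter and normalization are not given in the sources used here, and no depth exists for arrays, whose number limits the precision. Of 28704 spots, 18511 carried 1 gene symbol. Arrays were centred on their median and spots of a gene averaged (4381 tested genes had more than 1 spot). Where spots are missing, arrays can differ in the spots behind a gene's mean. A gene was tested with a value in each of the 4 hypoxia groups.

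limma 3.58.1 (R 4.3.3) was fitted with 9 group means over all 18 arrays, which share 1 spread (prior degrees of freedom 6.00), two-sided, Benjamini-Hochberg over all genes, threshold 0.05. The code was tested on simulated data. Alternatives were no centring, quantile normalization, a common spread, complete genes, medians of spots, spots without a single symbol, the spread of 12 arrays, array weights, a replicate block, a regrouped array and each array left out. Leaving out both arrays that go against a label was chosen after seeing the data.

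Named were the 12 genes per direction with the smallest p in the averaged difference (all 8 arrays, same sign in CCH and CIH), the 5 per direction in each other contrast and the 3 per list with the smallest p in the averaged difference. Alb as a call after leaving out an array, Trf and the array values of Kdm6a were named after their values were seen. The comparison, the members and the lists were chosen with earlier results of these data known. CCH 1 week replicate 1 has no letter in its title and was numbered by elimination. Figures were drawn with matplotlib 3.10.9.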

Additional observations from a re-analysis of the deposited data

Results flagged for a closer look

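In 131 groups of 4 arrays (4 weeks or 1 week of hypoxia), 6 values stood far from the other 3 by Dixon's criterion, which chance meets in about 1 in 20 groups. CCH 1 week replicate 1 had an SD of log2 ratios of 0.440, against 0.285 to 0.305 on the other 1-week arrays. Ntm was 0.287 on CCH 1 week replicate 2, against 0.497 to 0.526. The median of the splicing factors and nuclear RNA-binding proteins was -0.083 on CIH 1 week replicate 2, against 0.028 to 0.035. The proteasome median was 0.066 on CIH 4 weeks replicate 1, the array whose Eif2s3y ratio was near zero, against -0.291 to -0.232. CCH 4 weeks replicate 1 stood apart in the endothelial median, at -0.425 against 0.057 to 0.129, and in the median of all genes measured on all 12 arrays, at -0.089 against -0.022 to -0.014. No difference between CCH and CIH, or between hypoxia and control, passed the threshold.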

How the results depend on the processing

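The averaged difference gave 0 calls under every alternative except leaving out arrays one at a time, where it gave 0 to 66. The CIH difference and the difference between the kinds gave 0 throughout, the control difference 0 to 5 and the excess over controls 0 to 1. The 107 CCH calls became 1 under quantile normalization (Car4), 0 with a common spread per array, 0 with the spread of the 1- and 4-week arrays, 43 with array weights (20 higher, 23 lower, all 43 among the 107) and 0 to 310 with arrays left out. With the replicate block on the letters A and B there were 0 CCH calls (smallest adjusted p = 0.0617). Same-letter deviations did not go together throughout: over 10 pairs of groups their correlation ran from -0.520 to 0.441, with 3 over 0.1. Between hypoxia arrays it was 0.097, 0.402 and 0.441, and between the controls 0.351. All pairs of a control and a hypoxia array were negative. Whether the letters pair the arrays is therefore not settled. The block fit also left out CCH 1 week replicate 1, which has no letter. Of the named genes' values, list members included, 1908 kept direction and side of the threshold, 164 lost the threshold and 8 changed sign under the settings, against 1243, 102 and 7 with arrays left out, where 20 passed the threshold anew. None of the values that changed sign was past the threshold. With the replicate block the averaged difference became 0.42 for Sftpc, 0.046 for Sftpb, 0.097 for Scd1, 1.07 for Alb and 0.020 for Tubb3, which was 0.029 under quantile normalization and 0.022 with a common spread. Dgat2 became -0.044 without both doubted arrays. With arrays left out, the averaged difference of genes that changed sign ran from -3.06 to 1.10 for Alb, -2.96 to 0.55 for Sftpc, -0.70 to 0.090 for Scd1, -0.23 to 0.113 for Sftpb, -0.32 to 0.078 for Tubb3 and -0.064 to 0.95 for Myot. Car4 passed in CCH under 9 of 14 alternatives and Igf1 under 7. With arrays left out, the spot difference stayed at -7382.25 to -6703.75 and the SD difference at 0.0804 to 0.164. Scaling moved the median of all genes by less than 0.1. With 2 arrays a group, the number of arrays limits the precision.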
